A study of Mus musculus with 27 samples.

Results

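The integrin subunit genes described here are Itgb3, Itgav, Itgb5, Itgam, Itgax, Itgal, Itga4, Itga5, Itga6 and Itgb2, 10 of the 50559 genes in a table of 3′ RNA-seq counts, taken by name with earlier results of these data known. The study examined mouse macrophages with and without TRAP1, a mitochondrial chaperone, and what conditioned medium of malignant peripheral nerve sheath tumor (MPNST) cells does to them. Female C57BL/6 mice 3 to 4 months old, wild-type (WT) or TRAP1 KO, gave bone marrow that was grown into unpolarized M0 macrophages, and some of these were made M2 with 10 ng/mL of IL-4 over 24 h. M0 and M2 cells then spent 48 h in DMEM, the control medium, or in MPNST-CM, the conditioned medium, which was renewed after the first 24 h. The 8 groups were therefore WT M0 in DMEM, TRAP1 KO M0 in DMEM, WT M0 in MPNST-CM, TRAP1 KO M0 in MPNST-CM, and the same 4 combinations of genotype and medium for M2, each with 3 libraries of batch 1. Batch 2 added 1 library each to WT M0 in DMEM, KO M2 in DMEM and KO M2 in MPNST-CM.

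The labels do not say whether the 3 libraries of a group came from separate mice or separate dishes, so the tests measure the spread between these samples only. How the Trap1 allele was made, which MPNST line conditioned the medium and whether IL-4 was present during the exposure are not given in the labels. Libraries were made with the QuantSeq forward kit, which reads the 3′ end of each transcript in its own strand. Batch 1 held 7037684 to 9089792 counts per library, with a median of 7872887, and batch 2 held 9997776 to 11152362. Levels are given as CPM, the usual scaling of counts to a common library total, after TMM normalization over the 24 batch 1 libraries, and libraries of a group are listed in the order of their replicate numbers. A log2 fold change is given with a standard error (SE) derived here as its absolute value over the square root of the F statistic. The F statistic is that of edgeR's quasi-likelihood test, and a gene was called when its p adjusted over 13614 tested genes was under 0.05.

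Integrins are cell surface receptors built from an α and a β chain, which hold cells to matrix or to other cells and carry signals in both directions across the membrane. The β2 chain is the leukocyte partner of αM, αX and αL, receptors for complement fragments and ICAMs, while αv pairs with β3 or β5 to bind RGD-bearing ligands such as vitronectin. In macrophages these receptors serve adhesion, podosomes, phagocytosis and migration, and the α4, α5 and α6 chains, which pair mainly with β1, bind VCAM-1 with fibronectin, fibronectin, and laminin in that order.

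Trap1, the targeted gene, was read in every library first. It stood at 13.4, 11.6 and 11.6 CPM in WT M0 in DMEM, 16.7, 11.18 and 13.7 in WT M0 in MPNST-CM, 15.8, 16.3 and 18.8 in WT M2 in DMEM and 10.4, 10.5 and 10.6 in WT M2 in MPNST-CM. All 12 KO libraries of batch 1 held 0 Trap1 counts, where fewer than 3 counts in a library were taken as not detectable at this depth. The library labelled M2_DMEM_KO_4 held 2 Trap1 counts and the library labelled M2_CM_KO_4 held 0. Xist, transcribed from the inactive X chromosome of female cells, averaged 378, 337, 372 and 348 CPM in the WT groups of batch 1 and 0.467, 0.411, 0.179 and 0.581 CPM in the KO groups, although every mouse was labelled female. In batch 2 Xist was at 438 CPM in WT, 404 CPM in the library labelled M2_DMEM_KO_4 and 308 CPM in the library labelled M2_CM_KO_4. Within batch 1, genotype and this difference in Xist cannot be told apart, which holds for every KO against WT value below.

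The 2 KO libraries of batch 2 stood apart from the groups they were labelled with. Over all genes tested, the Spearman correlation of the library labelled M2_DMEM_KO_4 was 0.913 with the mean of KO M2 in DMEM, 0.964 with KO M2 in MPNST-CM and 0.969 with KO M0 in MPNST-CM, its closest group. For the library labelled M2_CM_KO_4 it was 0.949 with its own group, 0.982 with KO M2 in DMEM and 0.983 with WT M2 in DMEM. Genes are not independent replicates, and these correlations are descriptions. The WT M0 library of batch 2 was closest to its own group, at 0.988. IL-4 response markers summed to 747 CPM in the library labelled M2_DMEM_KO_4, below each M2 library of batch 1, and to 6011 CPM in the library labelled M2_CM_KO_4. Whether the labels of these 2 libraries are right was not tested, and they were kept as given. All results below rest on batch 1, and the batch 2 values of the members, scaled over all 27 libraries, are given beside them. Within batch 1, replicate 1 stood apart from replicates 2 and 3 in 5 groups, the 4 M0 groups and WT M2 in MPNST-CM. There the chi-square per degree of freedom between libraries, over genes with at least 20 counts, was 16 to 37.4 for the pairs with replicate 1 and 2.11 to 3.42 for replicates 2 and 3. Itgam and Itgb2 were lowest in replicate 1 in each M0 group. In KO M2 in DMEM replicate 2 stood apart, at 10.8 and 13.1 against 4.26 for replicates 1 and 3.

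Macrophage markers (8 genes, all detected) summed to 7267 to 12659 CPM across the 24 libraries of batch 1, with Lyz2 the most abundant. IL-4 response markers (8 genes) summed to 782 and 875 CPM in WT and KO M0 in DMEM against 3290 and 2869 CPM in M2. In MPNST-CM the IL-4 list reached 1311 and 2711 CPM in WT and KO M0, mostly Mrc1, and 4807 and 4585 CPM in M2. Mrc1 also led in M2 in MPNST-CM, at 2843 CPM in WT and 3514 in KO. In M2 in DMEM Retnla led, at 1673 and 1896 CPM. Ccl17 was under 3 counts in KO M2 in MPNST-CM, and not in KO M2 in DMEM. The M2 sums of the media are thus led by different genes and are not read as a stronger IL-4 response. Lists for other cells were low in batch 1: neutrophil and progenitor genes summed to 1.88 to 20.6 CPM with S100a8 the highest in 7 groups and Ly6g in KO M0 in MPNST-CM, dendritic cell genes to 10.7 to 23.4 CPM led by Kmo, Zbtb46 or Ccr7, and megakaryocyte genes to 11.5 to 28.1 CPM, nearly all Treml1, with Gp1bb, Gp6 and Tubb1 under 3 counts in every library. Endothelial genes summed to 29.97 to 71.8 CPM, led by Kdr or Vwf with Tek, Emcn, Cldn5 and Tie1 under 3 counts throughout, and fibroblast and Schwann lineage genes to 0.854 to 5.70 CPM, with Col3a1, Pdgfra and Sox10 under 3 counts. In batch 2 the neutrophil and progenitor list summed to 437 CPM in the library labelled M2_CM_KO_4 and 55.5 CPM in WT M0, led by S100a9 in each, and to 9.86 CPM in the library labelled M2_DMEM_KO_4. The 8 lymphocyte and NK genes summed to 0 to 0.789 CPM. In these bulk libraries fewer cells of a type and less RNA per cell cannot be told apart, which applies to each level reported below.

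Osteoclast markers are given apart because αvβ3 is also a receptor of osteoclasts. The 8 genes summed to 165, 159 and 174 CPM in WT M0 in DMEM, 243, 237 and 226 in KO M0 in DMEM, 136, 129.9 and 132 in WT M0 in MPNST-CM and 96.1, 99.9 and 98.8 in KO M0 in MPNST-CM. In M2 they summed to 1773, 1765 and 1786 CPM in WT in DMEM, 1341, 1416 and 1279 in KO in DMEM, 1011, 1076 and 1074 in WT in MPNST-CM and 426, 439 and 413 in KO in MPNST-CM. In batch 2 they summed to 156 CPM in WT M0, 129.8 in the library labelled M2_DMEM_KO_4 and 1068 in the library labelled M2_CM_KO_4. Every M2 library of batch 1 lay above every M0 library. By group mean Atp6v0d2 was the most abundant gene except in KO M0 in MPNST-CM, where Nfatc1 was, though Atp6v0d2 led in replicate 3. Calcr was under 3 counts in every library and Oscar in every library outside M0 in DMEM. Their part in the integrin levels was not tested.

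All 10 members passed the filter on low counts, and in DMEM the largest differences between M2 and M0 were those of Itgax, Itgb3 and Itgb2. In DMEM, M2 against M0 gave 5 members higher and 2 lower in WT, beside 19.1% higher and 18.1% lower among all genes. The KO gave 6 higher and 2 lower, beside 15.6% higher and 12.9% lower. In both genotypes the share of members called higher was well above that of all genes, and the median member difference was 0.53 against −0.035 over all genes in WT and 0.80 against −0.028 over all genes in KO. The members were chosen with earlier results of these data known and were not matched to all genes in level. Their shares and medians, here and below, are therefore descriptions and no test of an excess. In MPNST-CM the WT cells gave 5 members higher and 2 lower, beside 11.9% higher and 13.04% lower among all genes. Among KO cells in MPNST-CM, 3 members were higher and 3 lower, beside 6.71% higher and 4.47% lower. Medians there were 0.13 against −0.052 over all genes in WT and 0.12 against 0.0082 over all genes in KO.

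Exposure to MPNST-CM moved members mostly downward. WT M0 gave 0 members higher and 6 lower, beside 11.3% higher and 9.96% lower among all genes. WT M2 gave 1 higher and 7 lower, beside 11.19% higher and 13.3% lower. The share of members called lower exceeded that of all genes in both, and the median member difference was −0.43 against −0.015 over all genes in M0 and −0.41 against −0.029 over all genes in M2. KO M0 gave 2 higher and 4 lower, beside 14.8% higher and 18.1% lower. KO M2 gave 0 higher and 7 lower, beside 16.7% higher and 20.2% lower. The higher count in KO M0 was close to the background, and the medians were −0.28 against −0.042 over all genes in KO M0 and −0.86 against −0.012 over all genes in KO M2. With all 27 libraries, 1 member was called in WT M0, 3 in WT M2 and 2 in KO M2. Over all genes 958, 1014 and 826 were called there in the same order. In KO M0 the Itgax call was lost with all 27 (−2.11, adjusted p = 0.0545).

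Loss of TRAP1, read as KO against WT, was also mostly downward among the members. In DMEM the KO gave 0 members higher and 6 lower in M0, beside 8.64% higher and 7.97% lower among all genes, and a median of −0.51 against 0.027 over all genes. KO M2 in DMEM gave 1 higher and 5 lower, beside 8.56% higher and 7.87% lower, with a median of −0.34 against 0.017 over all genes. KO M0 in MPNST-CM gave 1 higher and 5 lower, beside 19.1% higher and 19.2% lower, with a median of −0.46 against 0.043 over all genes. KO M2 in MPNST-CM gave 0 higher and 7 lower, beside 17.2% higher and 16.8% lower, with a median of −0.59 against 0.053 over all genes. In all 4 the share of members called lower was above that of all genes, and the share called higher was below it in 3 of them. With all 27 libraries, 3 members were called in M0 in DMEM, 3 in M2 in DMEM and 2 in exposed M2. Over all genes 854, 1137 and 1681 were called there in the same order. In exposed M0 the calls of Itgax (−1.515, adjusted p = 0.157) and Itga4 (−0.36, adjusted p = 0.324) were lost with all 27. For the 4 comparisons of medium or genotype with 0 members higher in edgeR, 0 members were higher at an unadjusted p under 0.05 and 0 by DESeq2. Since the same WT and KO samples in DMEM serve as controls for several of these comparisons, the values of a member in them are given side by side and not as separate support.

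The genotype by medium term is the response of KO cells to MPNST-CM minus that of WT cells. It was called above 0 for 3 members and below 0 for 3 in M0, beside 8.17% higher and 11.5% lower among all genes. In M2 it was above 0 for 2 members and below 0 for 6, beside 9.36% higher and 10.8% lower. With all 27 libraries none of the members was called for the M2 term, with or without a batch term, and 180 genes were called without it, from 2751. Each direction took a larger share of the members than of all genes, most of all the lower direction in M2. Differences between the M0 and M2 responses to the medium, and between IL-4 effects across genotypes or media, were not tested.

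**Figure D1:**
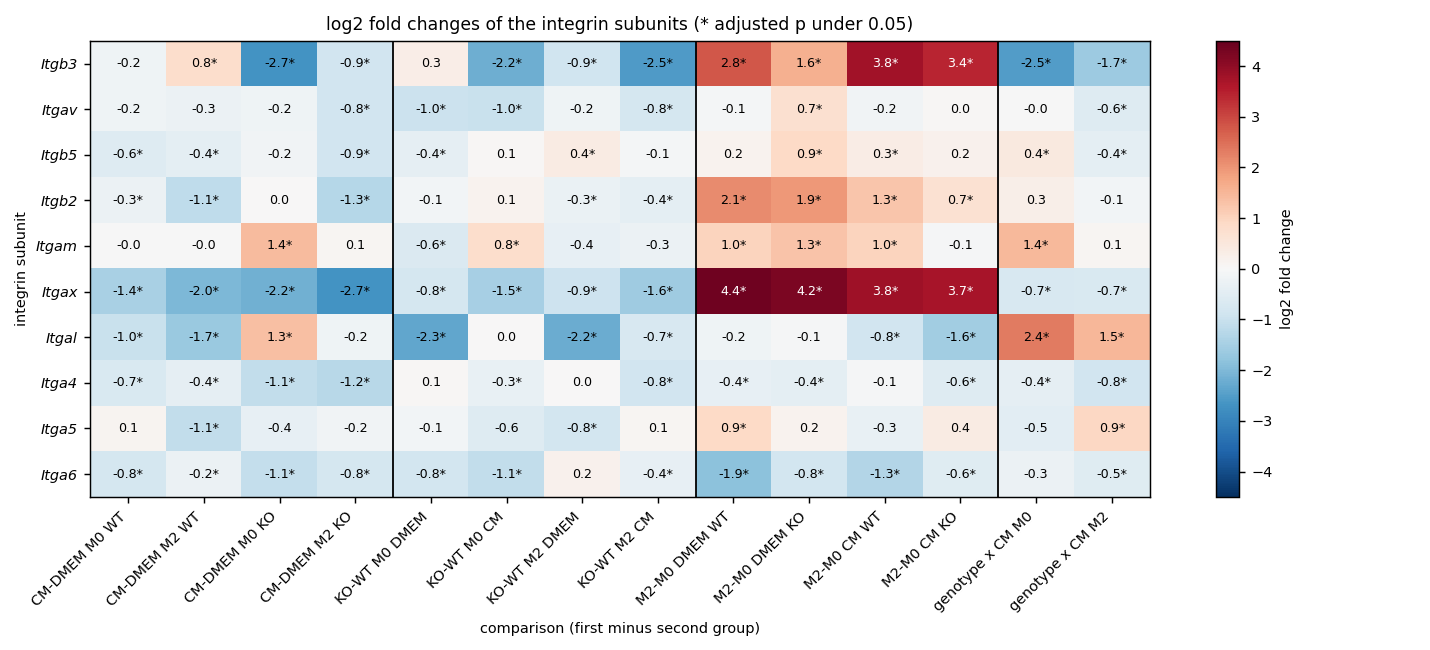
Log2 fold change of each of the 10 members (vertical axis) in each of the 14 comparisons (horizontal axis), colored by size and direction, with an asterisk where the adjusted p was under 0.05. Itgax runs from −2.68 for MPNST-CM in KO M2 to 4.38 for M2 against M0 in WT in DMEM.

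Among the leukocyte integrins, Itgb2 encodes the β2 chain that αM, αX and αL share. In DMEM it stood at 590.4, 673 and 673 CPM in WT M0 and 2733, 2866 and 2880 CPM in WT M2. KO cells in DMEM held 573, 610.1 and 594 CPM as M0 and 2366, 2221 and 2274 CPM as M2. The M2 libraries lay far above the M0 libraries in each genotype, with IL-4 differences of 2.13 ± 0.085 (SE, adjusted p = 6.56e-17) in WT and 1.95 ± 0.085 (SE, adjusted p = 4.63e-16) in KO on the log2 scale. With MPNST-CM, Itgb2 was at 471, 573 and 571 CPM in WT M0 and 553, 610.0 and 619.7 CPM in KO M0. M2 cells in MPNST-CM held 1171, 1369 and 1337 CPM in WT and 969, 995 and 884 CPM in KO. The M2 libraries in MPNST-CM lay between M0 and M2 in DMEM without overlap, and the response to the medium was −1.13 ± 0.083 (SE, adjusted p = 4.84e-11) in WT M2 and −1.27 ± 0.083 (SE, adjusted p = 1.43e-12) in KO M2. In M0 that response was −0.26 ± 0.082 (SE, adjusted p = 0.023) in WT, a call lost when any 1 of 3 libraries was left out, and 0.0048 (adjusted p = 0.976) in KO, where the groups overlapped. Neither genotype by medium term was called, at 0.27 (adjusted p = 0.114) in M0 and −0.14 (adjusted p = 0.461) in M2. KO M2 lay below WT M2 in DMEM, at −0.31 ± 0.082 (SE, adjusted p = 0.0101), a call lost without WT M2 DMEM replicate 4 (−0.31, adjusted p = 0.0532), and in MPNST-CM, at −0.44 ± 0.082 (SE, adjusted p = 0.000111), with no overlap. In M0 the genotypes overlapped in each medium, at −0.12 (adjusted p = 0.374) in DMEM and 0.14 (adjusted p = 0.177) in MPNST-CM. From high to low the groups ran WT M2 DMEM, KO M2 DMEM, WT M2 MPNST-CM, KO M2 MPNST-CM and then the 4 M0 groups, of which WT DMEM, KO MPNST-CM and KO DMEM overlapped as neighbours. The batch 2 libraries were at 607 CPM in WT M0 in DMEM, 508 CPM in the library labelled M2_DMEM_KO_4 and 1593 CPM in the library labelled M2_CM_KO_4. Of its 9 calls, 5 were lost with all 27 libraries, at −0.21 (adjusted p = 0.758) for MPNST-CM in WT M0, −0.71 (adjusted p = 0.127) for MPNST-CM in KO M2, −0.64 (adjusted p = 0.171) for KO against WT in M2 DMEM, −0.27 (adjusted p = 0.611) for KO against WT in exposed M2 and 0.89 (adjusted p = 0.112) for M2 against M0 in exposed KO.

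Itgax encodes αX (CD11c), the chain of complement receptor 4 and a common marker of dendritic cells and of some tissue macrophages. In DMEM it stood at 65.8, 78.7 and 69.8 CPM in WT M0 and 1494, 1476 and 1506 CPM in WT M2. In KO it stood at 43.5, 40.97 and 40.1 CPM as M0 and 765, 816 and 751 CPM as M2. The M2 libraries exceeded the M0 libraries of their genotype in all cases, by 4.38 ± 0.091 (SE, adjusted p = 1.39e-22) in WT and 4.22 ± 0.092 (SE, adjusted p = 4.16e-22) in KO on the log2 scale. MPNST-CM left 27.8, 26.4 and 24.5 CPM in WT M0 and 8.24, 11.1 and 8.53 CPM in KO M0. In M2 it left 353, 386 and 374 CPM in WT and 123, 120.3 and 121 CPM in KO. All exposed libraries lay below those of the same cells in DMEM. The fall was −1.45 ± 0.088 (SE, adjusted p = 3.79e-12) in WT M0 and −2.16 ± 0.10 (SE, adjusted p = 1.38e-15) in KO M0. It was −2.01 ± 0.082 (SE, adjusted p = 4.62e-16) in WT M2 and −2.68 ± 0.085 (SE, adjusted p = 4.66e-19) in KO M2. The response was larger in KO than in WT, at −0.71 ± 0.13 (SE, adjusted p = 0.000229) in M0 and −0.67 ± 0.11 (SE, adjusted p = 6.4e-05) in M2. The M2 term turned to 0.44 with all 27 libraries (adjusted p = 0.877).

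KO libraries held less Itgax than WT libraries of the same cells and medium in each of the 4 pairs of groups, with no overlap. The difference was −0.78 ± 0.086 (SE, adjusted p = 1.53e-07) in M0 and −0.94 ± 0.079 (SE, adjusted p = 2.06e-09) in M2 in DMEM. In MPNST-CM it was −1.50 ± 0.10 (SE, adjusted p = 4.78e-12) in M0 and −1.61 ± 0.082 (SE, adjusted p = 2.02e-14) in M2. The order of levels was WT M2 DMEM, KO M2 DMEM, WT M2 MPNST-CM, KO M2 MPNST-CM, WT M0 DMEM, KO M0 DMEM, WT M0 MPNST-CM and KO M0 MPNST-CM, and no neighbours in it overlapped. Across the 8 group means Itgax spanned 7.30 log2 units, the widest range among the members. Batch 2 gave 35.1 CPM in WT M0 in DMEM, 20.4 CPM in the library labelled M2_DMEM_KO_4, within the range of the M0 libraries, and 445 CPM in the library labelled M2_CM_KO_4. Of the 14 Itgax calls, the 4 between M2 and M0 held with all 27 libraries and 10 were lost, at −1.22 (adjusted p = 0.32) for MPNST-CM in WT M0, −1.96 (adjusted p = 0.0946) for MPNST-CM in WT M2, −2.11 (adjusted p = 0.0545) for MPNST-CM in KO M0, −1.51 (adjusted p = 0.136) for MPNST-CM in KO M2 and −0.62 (adjusted p = 0.704) for KO against WT in M0 DMEM. The others lost were −1.51 (adjusted p = 0.157) for KO against WT in exposed M0, −1.37 (adjusted p = 0.173) for KO against WT in M2 DMEM, −0.93 (adjusted p = 0.379) for KO against WT in exposed M2, −0.89 (adjusted p = 0.693) for the M0 term and 0.44 (adjusted p = 0.877) for the M2 term.

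Itgam encodes αM (CD11b), the chain of complement receptor 3 and a general marker of myeloid cells. Its gene lies directly before Itgax on chromosome 7, in the order Itgam, Itgax, Itgad. In WT cells in DMEM it stood at 492, 662 and 645 CPM as M0 and 1256, 1215 and 1162 CPM as M2. KO cells in DMEM had 328, 419.9 and 407 CPM as M0 and 1017, 824 and 978 CPM as M2. M2 exceeded M0 in all of these libraries, by 1.01 ± 0.13 (SE, adjusted p = 1.08e-06) in WT and 1.29 ± 0.13 (SE, adjusted p = 4.16e-08) in KO. Exposed M0 cells held 462, 678 and 639.6 CPM in WT and 921, 1045 and 1139 CPM in KO. Exposed M2 cells held 1142, 1195 and 1264 CPM in WT and 994, 1079 and 900.0 CPM in KO. All 3 exposed KO M0 libraries lay above all KO M0 libraries in DMEM, whereas the WT M0 libraries overlapped between media. The response to MPNST-CM was 1.43 ± 0.13 (SE, adjusted p = 5.31e-09) in KO M0 and −0.016 (adjusted p = 0.954) in WT M0, and the genotype by medium term was 1.44 ± 0.19 (SE, adjusted p = 2.56e-06). In M2 the groups overlapped between media, at −0.013 (adjusted p = 0.965) in WT and 0.077 (adjusted p = 0.692) in KO, with a term of 0.090 (adjusted p = 0.799).

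KO M0 thus had less Itgam than WT M0 in DMEM, at −0.64 ± 0.13 (SE, adjusted p = 0.00103), and more in MPNST-CM, by 0.80 ± 0.13 (SE, adjusted p = 2.96e-05). In M2 the genotype difference was not called, at −0.37 (adjusted p = 0.0573) in DMEM and −0.28 (adjusted p = 0.106) in MPNST-CM. M2 against M0 in MPNST-CM was 1.02 ± 0.13 (SE, adjusted p = 2.22e-06) in WT and −0.063 (adjusted p = 0.865) in KO, where the libraries overlapped. From high to low the order was WT M2 DMEM and WT M2 MPNST-CM, which overlapped, then KO M0 MPNST-CM, KO M2 MPNST-CM and KO M2 DMEM, each overlapping the next, then WT M0 DMEM and WT M0 MPNST-CM, which overlapped, and KO M0 DMEM lowest. Batch 2 gave 458 CPM in WT M0 in DMEM, 392 CPM in the library labelled M2_DMEM_KO_4 and 681 CPM in the library labelled M2_CM_KO_4. With all 27 libraries 1 of 7 Itgam calls was lost, at −0.59 (adjusted p = 0.135) for KO against WT in M0 DMEM.

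Promoter sequences of Itgam and Itgax are shown because these neighbouring genes moved differently, as Itgax fell with MPNST-CM in all 4 kinds of cell while Itgam rose in KO M0 and was not called in the other 3. They are the 250 bases before each start in build GRCm38.p6 from RefSeq, plus strand, at chr7:128062390-128062639 for Itgam and chr7:128129300-128129549 for Itgax, with motif matches in capitals. The letters searched on both strands were ACGTG and GCGTG (HIF), TGANTCA (AP-1), GAGGAA (PU.1 core) and TTCNNNNGAA (STAT6), over these bases and 50 after the start.
Itgam: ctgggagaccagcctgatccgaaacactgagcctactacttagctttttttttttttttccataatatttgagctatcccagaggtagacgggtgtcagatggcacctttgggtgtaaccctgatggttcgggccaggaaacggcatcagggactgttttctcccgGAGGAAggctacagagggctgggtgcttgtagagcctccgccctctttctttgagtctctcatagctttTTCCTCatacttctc
Itgax: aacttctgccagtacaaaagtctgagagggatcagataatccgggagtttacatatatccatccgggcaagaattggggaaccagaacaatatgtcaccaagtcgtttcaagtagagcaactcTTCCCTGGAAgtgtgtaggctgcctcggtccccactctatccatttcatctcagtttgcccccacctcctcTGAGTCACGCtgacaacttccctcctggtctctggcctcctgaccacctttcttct
In Itgam the capitals mark GAGGAA at −84 and, on the other strand, at −15, and a further match lay at 33 after the start. In Itgax they mark the STAT6 letters at −127, TGAGTCA at −56 and, overlapping it, GCGTG on the other strand at −51. Matches occurred in 19.6% of 32851 promoters for ACGTG, 32.4% for GCGTG, 7.81% for TGANTCA, 28.3% for GAGGAA and 6.95% for the STAT6 letters. Sequences of 6 of the 10 members were matched, and among the other 4 of these, GAGGAA was in Itgav and Itga5 and GCGTG in Itgb5 and Itga4. ACGTG was in none of the 6 windows. A match describes letters and not binding.

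Itgal encodes αL (CD11a), which with β2 forms LFA-1, a receptor for ICAMs. WT cells in DMEM held 54.3, 58.8 and 54.3 CPM as M0 and 50.9, 45.5 and 50.5 CPM as M2. KO cells in DMEM held 9.50, 10.6 and 12.8 CPM as M0 and 10.7, 10.4 and 10.5 CPM as M2. All 6 KO libraries lay far below all 6 WT libraries, at −2.35 ± 0.13 (SE, adjusted p = 4.35e-13) in M0 and −2.22 ± 0.13 (SE, adjusted p = 5.29e-12) in M2. After MPNST-CM, WT M0 held 29.2, 25.7 and 28.2 CPM and KO M0 24.1, 28.7 and 30.7 CPM. Exposed M2 cells held 12.6, 16.7 and 16.98 CPM in WT and 9.39, 9.72 and 8.73 CPM in KO. The genotypes overlapped in exposed M0 and stayed apart in exposed M2, at 0.0060 (adjusted p = 0.976) and −0.73 ± 0.14 (SE, adjusted p = 0.000111). The medium lowered Itgal in WT M0, at −1.01 ± 0.12 (SE, adjusted p = 2.8e-07) and in WT M2, at −1.67 ± 0.12 (SE, adjusted p = 4.72e-11). In KO M0 it raised Itgal by 1.34 ± 0.13 (SE, adjusted p = 2.63e-09), and in KO M2 the value was −0.18 (adjusted p = 0.351). The genotype by medium term was 2.35 ± 0.17 (SE, adjusted p = 7e-11) in M0 and 1.49 ± 0.19 (SE, adjusted p = 1.04e-06) in M2.

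Unlike Itgax and Itgb2, Itgal did not pass the test between M2 and M0 in DMEM, at −0.19 (adjusted p = 0.199) in WT and −0.056 (adjusted p = 0.816) in KO, and was lower in M2 in MPNST-CM, at −0.84 ± 0.12 (SE, adjusted p = 6.8e-06) in WT and −1.58 ± 0.13 (SE, adjusted p = 8.73e-10) in KO. The highest group was WT M0 DMEM, then WT M2 DMEM, then KO and WT M0 in MPNST-CM, which overlapped, then WT M2 MPNST-CM, KO M0 DMEM and KO M2 DMEM, each overlapping the next, and KO M2 MPNST-CM was lowest. In batch 2 the WT M0 library in DMEM held 11.5 CPM, near the KO libraries of batch 1 other than exposed KO M0, whereas the library labelled M2_DMEM_KO_4 held 38.8 CPM and the library labelled M2_CM_KO_4 7.89 CPM. With that WT library added to batch 1, KO against WT in M0 in DMEM was −2.06 (adjusted p = 0.000381) and the response of WT M0 to MPNST-CM was −0.65 (adjusted p = 0.184). In that fit of 25 libraries 3 other Itgal calls were lost, KO against WT in exposed M2 at −0.78 (adjusted p = 0.153), M2 against M0 in WT in MPNST-CM at −0.84 (adjusted p = 0.114) and the M2 genotype by medium term at 1.45 (adjusted p = 0.0817). With all 27 libraries 5 of 10 Itgal calls were lost, at −0.66 (adjusted p = 0.407) for MPNST-CM in WT M0, −0.85 (adjusted p = 0.232) for KO against WT in exposed M2, −0.82 (adjusted p = 0.295) for M2 against M0 in exposed WT, 2.05 (adjusted p = 0.066) for the M0 term and 0.62 (adjusted p = 0.717) for the M2 term, and KO against WT in M2 DMEM held at −1.46 (adjusted p = 0.0326).

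The 3 α chains that share β2 were also read as parts of their summed CPM. Reads of 3′ ends are not scaled by transcript length, so a share is read only across groups. In DMEM Itgax made up 9.88 ± 0.828% (mean and SD) of the sum in WT M0 and 54.2 ± 1.06% in WT M2. In KO it made up 9.61 ± 1.57% in M0 and 45.1 ± 3.78% in M2. After MPNST-CM the Itgax share was 4.17 ± 1.03% in WT M0, 0.869 ± 0.148% in KO M0, 23.4 ± 0.782% in WT M2 and 10.9 ± 0.901% in KO M2. It was therefore highest in M2 in DMEM and lower in each exposed group. The Itgam share ran from 43.99 ± 1.11% in WT M2 in DMEM to 96.5 ± 0.179% in exposed KO M0. Itgal contributed 7.76 ± 0.972% in WT M0 in DMEM and 0.610 ± 0.0202% in KO M2 in DMEM, its highest and lowest shares. For Itgam the 2 groups did not overlap in any of the 12 pairs of groups that differ in 1 factor, and the two-sided exact permutation p was 0.1, the smallest that 3 against 3 libraries can give (0.1 after adjustment over the 12). The Itgax share overlapped only between WT and KO M0 in DMEM (exact p = 0.8), with 0.109 after adjustment in the other 11 pairs. The Itgal share overlapped between media in KO M0 (exact p = 0.7) and between genotypes in exposed M2 (exact p = 0.2). In batch 2 the Itgax share was 6.96% in WT M0, 4.52% in the library labelled M2_DMEM_KO_4 and 39.2% in the library labelled M2_CM_KO_4. The Itgal share was 2.28%, 8.6% and 0.696% in the same libraries. With all 27 libraries the Itgal share difference reversed for MPNST-CM in KO M2, to −1.81 percentage points. It also reversed to 0.828 for KO against WT in M2 DMEM and to 0.103 for M2 against M0 in KO DMEM.

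**Figure D2:**
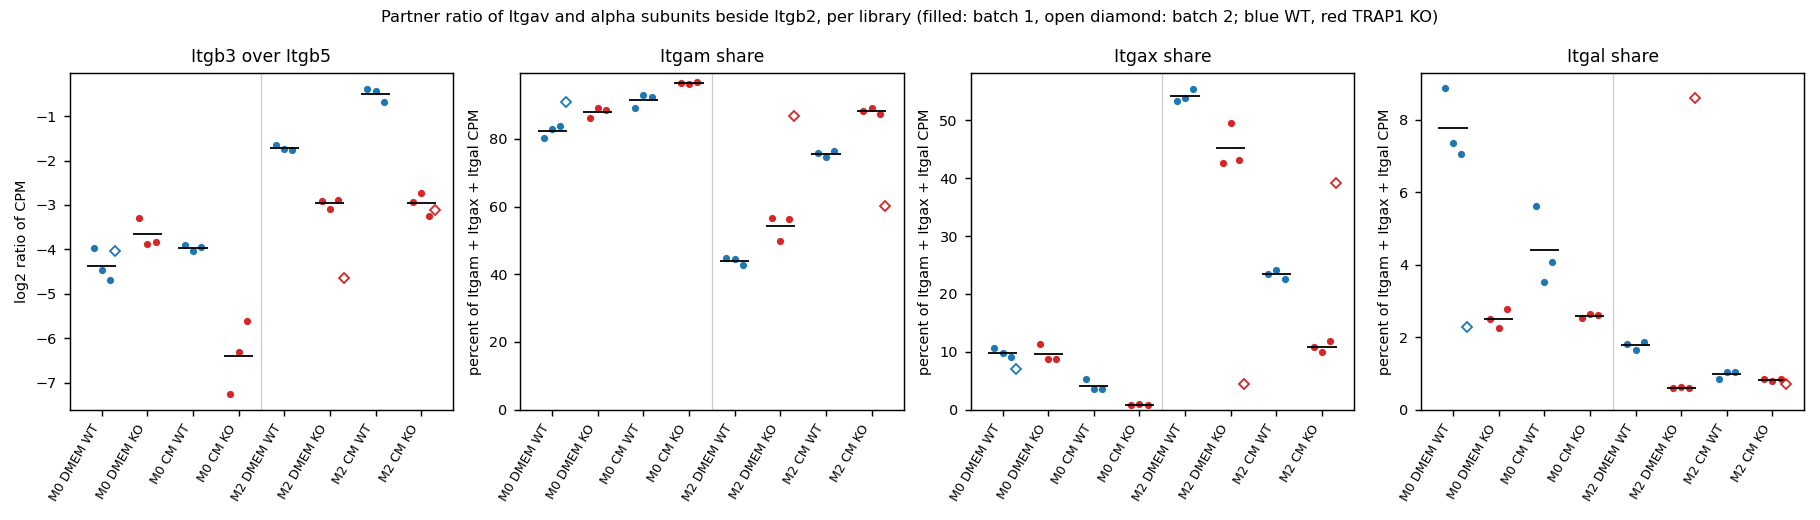
Log2 ratio of Itgb3 to Itgb5 CPM, and the percent of Itgam, Itgax and Itgal in their summed CPM, on the vertical axes for each library of the 8 groups on the horizontal axis. Itgax takes 54.2 ± 1.06% of the sum in WT M2 in DMEM and 0.869 ± 0.148% in KO M0 in MPNST-CM, and the ratio is highest in WT M2 in MPNST-CM.

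Of the αv receptors, Itgb3 encodes the β3 chain, which with αv forms the vitronectin receptor of osteoclasts and activated macrophages. In DMEM it stood at 9.32, 7.17 and 6.15 CPM in WT M0 and 10.8, 8.25 and 8.81 CPM in KO M0. M2 in DMEM held 55.6, 50.8 and 50.4 CPM in WT and 28.1, 27.2 and 29.2 CPM in KO. The genotypes overlapped as M0, at 0.30 (adjusted p = 0.294), and were apart as M2, where KO was lower, at −0.89 ± 0.14 (SE, adjusted p = 4.78e-05). IL-4 raised Itgb3 in DMEM by 2.79 ± 0.16 (SE, adjusted p = 8.45e-14) in WT and 1.60 ± 0.16 (SE, adjusted p = 7.48e-09) in KO. After MPNST-CM, M0 held 6.60, 6.11 and 6.90 CPM in WT and 0.624, 1.46 and 2.17 CPM in KO, the latter from 5, 12 and 17 counts. M2 after MPNST-CM held 89.0, 95.4 and 85.4 CPM in WT and 15.6, 17.1 and 13.5 CPM in KO. WT M2 thus rose with the medium while KO M2 and KO M0 fell, with no overlap between media in these 3 pairs, and WT M0 overlapped. The responses were 0.78 ± 0.13 (SE, adjusted p = 5.93e-05) in WT M2 and −0.87 ± 0.15 (SE, adjusted p = 3.4e-05) in KO M2. In M0 they were −0.20 (adjusted p = 0.489) in WT and −2.70 ± 0.23 (SE, adjusted p = 3.9e-10) in KO.

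The genotype by medium term of Itgb3 was −2.50 ± 0.30 (SE, adjusted p = 4.58e-07) in M0 and −1.65 ± 0.20 (SE, adjusted p = 5.86e-07) in M2. In MPNST-CM, KO was below WT, at −2.20 ± 0.24 (SE, adjusted p = 3.74e-08) in M0 and −2.54 ± 0.15 (SE, adjusted p = 2.19e-13) in M2, and M2 was above M0 by 3.78 ± 0.16 (SE, adjusted p = 4.62e-16) in WT and 3.43 ± 0.22 (SE, adjusted p = 5.17e-12) in KO. Levels were ordered WT M2 MPNST-CM, WT M2 DMEM, KO M2 DMEM, KO M2 MPNST-CM, then KO M0 DMEM, WT M0 DMEM and WT M0 MPNST-CM, each overlapping the next, and KO M0 MPNST-CM lowest. Itgb3 spanned 5.87 log2 units across the group means, next to Itgax. In batch 2 it was at 6.83 CPM in WT M0 in DMEM, 4.21 CPM in the library labelled M2_DMEM_KO_4 and 21.6 CPM in the library labelled M2_CM_KO_4. Calls of Itgb3 lost with all 27 libraries were 3 of 12, at 0.84 (adjusted p = 0.181) for MPNST-CM in WT M2, −0.35 (adjusted p = 0.579) for MPNST-CM in KO M2 and −1.19 (adjusted p = 0.256) for the M2 term.

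Itgav encodes αv, the partner of β3 and β5. WT M0 held 62.9, 68.1 and 71.0 CPM in DMEM and 53.3, 63.7 and 60.1 CPM in MPNST-CM, and KO M0 held 33.9, 35.6 and 32.7 and 24.8, 35.03 and 29.6 CPM in the same order. Every KO M0 library lay below every WT M0 library in either medium, at −0.98 ± 0.11 (SE, adjusted p = 1.44e-07) in DMEM and −0.98 ± 0.11 (SE, adjusted p = 3.89e-08) in MPNST-CM. WT M2 held 60.7, 66.8 and 64.4 CPM in DMEM and 57.0, 50.99 and 50.3 CPM in MPNST-CM, and KO M2 held 49.2, 59.99 and 57.2 and 30.2, 30.8 and 31.5 CPM. The genotypes were apart in exposed M2, at −0.77 ± 0.11 (SE, adjusted p = 2.55e-06), and the difference in M2 in DMEM was not called, at −0.21 (adjusted p = 0.198). MPNST-CM lowered Itgav in KO M2, at −0.85 ± 0.11 (SE, adjusted p = 4.35e-07), with −0.28 (adjusted p = 0.0547) in WT M2 and a genotype by medium term of −0.57 ± 0.15 (SE, adjusted p = 0.00779). In M0 the response was −0.19 (adjusted p = 0.217) in WT and −0.19 (adjusted p = 0.2) in KO, with overlap, and the term was −0.0021 (adjusted p = 0.998). M2 exceeded M0 in KO in DMEM by 0.70 ± 0.11 (SE, adjusted p = 1.06e-05), while the other 3 values of M2 against M0 lay between −0.16 and 0.049 with overlap. The WT groups and KO M2 in DMEM overlapped as neighbours at the top of the order, and KO M0 DMEM, KO M2 MPNST-CM and KO M0 MPNST-CM formed the bottom. Batch 2 values were 60.4 CPM in WT M0, 45.2 CPM in the library labelled M2_DMEM_KO_4 and 41.9 CPM in the library labelled M2_CM_KO_4. The fit of all 27 libraries kept 5 of 6 Itgav calls and lost 1, at −0.40 (adjusted p = 0.278) for the M2 term.

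Itgb5 encodes β5, the other αv partner followed here, and spanned 1.11 log2 units, the narrowest range of the 10. In DMEM it ran 145 to 158 CPM in WT M0, 106 to 125 in KO M0, 169.8 to 174 in WT M2 and 209 to 234 in KO M2. In MPNST-CM it ran 99.3 to 106 CPM in WT M0, 95.6 to 116 in KO M0, 116 to 137 in WT M2 and 113 to 128 in KO M2. KO M2 in DMEM was the highest group and did not overlap WT M2 in DMEM below it, and from WT M2 in MPNST-CM down each group overlapped the next. The medium lowered it, at −0.59 ± 0.086 (SE, adjusted p = 1.17e-05) in WT M0, −0.43 ± 0.086 (SE, adjusted p = 0.000372) in WT M2 and −0.87 ± 0.086 (SE, adjusted p = 3.97e-09) in KO M2. KO M0 overlapped between media, at −0.15 (adjusted p = 0.191), and the genotype by medium term was 0.44 ± 0.12 (SE, adjusted p = 0.00992) in M0 and −0.44 ± 0.12 (SE, adjusted p = 0.00964) in M2. In DMEM the KO was lower as M0, at −0.39 ± 0.086 (SE, adjusted p = 0.00168), and higher as M2, by 0.35 ± 0.085 (SE, adjusted p = 0.00429), the latter not called without KO M2 DMEM replicate 2 (0.28, adjusted p = 0.0577). Exposed cells of the 2 genotypes overlapped, at 0.051 (adjusted p = 0.681) in M0 and −0.087 (adjusted p = 0.476) in M2. IL-4 differences were called in KO in DMEM, 0.90 ± 0.086 (SE, adjusted p = 3.55e-09), and in WT in MPNST-CM, 0.32 ± 0.086 (SE, adjusted p = 0.00613), and not in the other pairs (0.16 and 0.18). Itgb5 in batch 2 was at 113 CPM in WT M0, 106 CPM in the library labelled M2_DMEM_KO_4 and 186 CPM in the library labelled M2_CM_KO_4. The fit of all 27 libraries kept 1 of 9 Itgb5 calls, M2 against M0 in KO DMEM, and lost 8, at −0.47 (adjusted p = 0.165) for MPNST-CM in WT M0, −0.38 (adjusted p = 0.293) for MPNST-CM in WT M2, −0.46 (adjusted p = 0.12) for MPNST-CM in KO M2 and −0.33 (adjusted p = 0.395) for KO against WT in M0 DMEM. The others lost were 0.13 (adjusted p = 0.704) for KO against WT in M2 DMEM, 0.34 (adjusted p = 0.34) for M2 against M0 in exposed WT, 0.36 (adjusted p = 0.541) for the M0 term and −0.087 (adjusted p = 0.927) for the M2 term. In the fit of 25 libraries the M0 term was not called (0.35, adjusted p = 0.114).

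The ratio of Itgb3 to Itgb5 within a library shows how the β partners of αv shifted and does not depend on the scaling between libraries. On the log2 scale it was −3.96, −4.46 and −4.68 in WT M0 in DMEM and −3.29, −3.87 and −3.83 in KO M0 in DMEM. WT M2 in DMEM had −1.65, −1.74 and −1.77 and KO M2 in DMEM −2.90, −3.10 and −2.88. Both M2 groups exceeded their M0 groups, by 2.65 in WT and 0.70 in KO (exact permutation p = 0.1 each). With MPNST-CM the ratio was −3.91, −4.04 and −3.94 in WT M0 and −7.26, −6.31 and −5.60 in KO M0. Exposed WT M2 reached −0.38, −0.44 and −0.68, against −2.93, −2.73 and −3.24 in exposed KO M2. The ratio was higher with the medium in all WT M2 libraries, at 1.22, and lower in all KO M0 libraries, at −2.72, with no overlap (exact p = 0.1 each, 0.12 after adjustment over 12). It overlapped between media in WT M0, at 0.41 (exact p = 0.2), and in KO M2, at −0.0032 (exact p = 1.0), where Itgb3 and Itgb5 fell together. KO differed from WT by 0.70 in M0 and −1.24 in M2 in DMEM, and, at −2.43 in M0 and −2.47 in M2 in MPNST-CM, none with overlap (exact p = 0.1 each). Per 100 Itgb5 reads the group means gave 4.85, 7.87, 6.42 and 1.19 Itgb3 reads in WT DMEM, KO DMEM, WT MPNST-CM and KO MPNST-CM for M0. The M2 groups gave 30.4, 12.8, 70.7 and 12.8 in that order. The log2 ratio in batch 2 was −4.04 in WT M0, −4.65 in the library labelled M2_DMEM_KO_4 and −3.11 in the library labelled M2_CM_KO_4. With all 27 libraries the ratio differed by 0.284 for M2 against M0 in KO DMEM and 0.383 for MPNST-CM in KO M2. For KO against WT in M2 DMEM it then differed by −1.66.

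**Figure D3:**
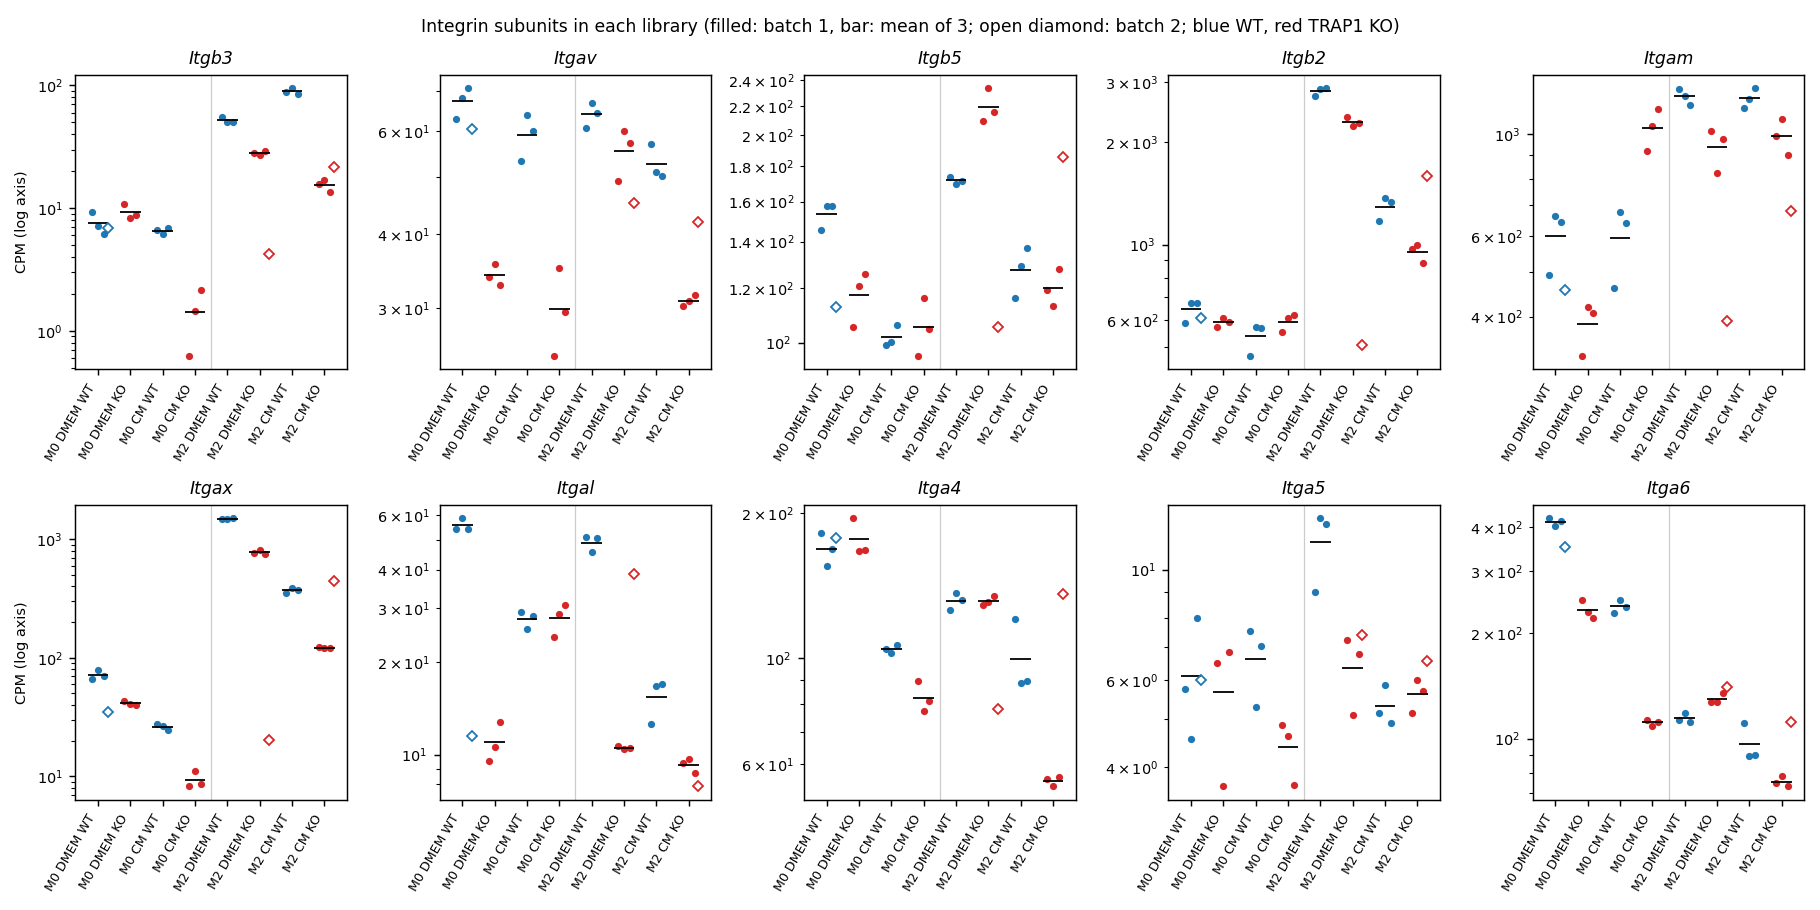
CPM on a log axis for the 10 members, 1 panel each, in the 8 groups on the horizontal axis (CM for MPNST-CM). Filled dots are batch 1 libraries scaled over 24, bars their mean of 3, open diamonds batch 2 libraries scaled over 27, blue WT and red KO. Itgax reaches 1492 CPM on average in WT M2 in DMEM and 9.28 CPM in KO M0 in MPNST-CM.

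Among the chains that pair mainly with β1, Itga6 encodes α6, a laminin receptor chain. In DMEM it stood at 424, 402 and 417 CPM in WT M0 and 248, 229 and 220.4 CPM in KO M0. M2 in DMEM held 113, 118 and 112 CPM in WT and 127, 127 and 135 CPM in KO. WT M0 was far above the rest, and M2 lay below M0 in each genotype, at −1.86 ± 0.080 (SE, adjusted p = 2.83e-16) in WT and −0.84 ± 0.079 (SE, adjusted p = 2.55e-09) in KO. In MPNST-CM, M0 held 228, 248 and 238 CPM in WT and 113, 108 and 112 CPM in KO. M2 in MPNST-CM held 110.5, 89.0 and 89.6 CPM in WT and 74.6, 78.3 and 73.2 CPM in KO. Exposed libraries lay below unexposed ones in all 4 kinds of cell, at −0.80 ± 0.077 (SE, adjusted p = 1.97e-08) in WT M0 and −1.06 ± 0.079 (SE, adjusted p = 2.12e-11) in KO M0. In M2 the response was −0.78 ± 0.080 (SE, adjusted p = 8.36e-09) in KO and −0.25 ± 0.079 (SE, adjusted p = 0.0234) in WT, and the WT M2 call was lost when any 1 of 5 of its 6 libraries was left out. The genotype by medium term was −0.26 (adjusted p = 0.0988) in M0 and −0.54 ± 0.11 (SE, adjusted p = 0.000896) in M2. KO M0 was below WT M0, at −0.84 ± 0.077 (SE, adjusted p = 8.86e-09) in DMEM and −1.10 ± 0.079 (SE, adjusted p = 1.34e-11) in MPNST-CM.

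For Itga6 in M2, KO against WT gave 0.18 (adjusted p = 0.123) in DMEM and −0.35 ± 0.080 (SE, adjusted p = 0.00103) in MPNST-CM. IL-4 differences in MPNST-CM were −1.30 ± 0.079 (SE, adjusted p = 8.89e-13) in WT and −0.56 ± 0.080 (SE, adjusted p = 1.3e-05) in KO. The order from high to low was WT M0 DMEM, then WT M0 MPNST-CM and KO M0 DMEM, which overlapped, then KO M2 DMEM, then WT M2 DMEM, KO M0 MPNST-CM and WT M2 MPNST-CM, each overlapping the next, and KO M2 MPNST-CM. Batch 2 libraries held 351 CPM in WT M0, 140.1 CPM in the library labelled M2_DMEM_KO_4 and 111 CPM in the library labelled M2_CM_KO_4. Of the 12 Itga6 calls, 3 were lost with all 27 libraries, at −0.20 (adjusted p = 0.377) for MPNST-CM in WT M2, −0.24 (adjusted p = 0.195) for KO against WT in exposed M2 and −0.43 (adjusted p = 0.206) for the M2 term.

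Itga4 encodes α4, the VLA-4 chain that binds VCAM-1 and fibronectin. In M0 it ran 155 to 182 CPM in WT and 167 to 195 in KO in DMEM, and 102 to 107 in WT and 77.4 to 89.5 in KO in MPNST-CM. In M2 it ran 126 to 136 CPM in WT and 129 to 134 in KO in DMEM, and 88.8 to 121 in WT and 54.0 to 56.4 in KO in MPNST-CM. Exposed libraries lay below unexposed libraries in all 4 kinds of cell, and KO M2 in MPNST-CM was the lowest group with no overlap. The fall with the medium was −0.69 ± 0.098 (SE, adjusted p = 7.68e-06) in WT M0 and −1.10 ± 0.099 (SE, adjusted p = 9.23e-10) in KO M0. In M2 it was −0.40 ± 0.098 (SE, adjusted p = 0.00319) in WT and −1.25 ± 0.10 (SE, adjusted p = 1.02e-10) in KO, and the term for the difference was −0.85 ± 0.14 (SE, adjusted p = 5.38e-05). The same term in M0, −0.40 ± 0.14 (SE, adjusted p = 0.0395), was lost without any 1 of 8 of the 12 libraries. The genotypes overlapped in DMEM, at 0.066 (adjusted p = 0.748) in M0 and 0.0013 (adjusted p = 0.997) in M2, and KO was lower in MPNST-CM, at −0.34 ± 0.099 (SE, adjusted p = 0.00825) in M0 and −0.84 ± 0.10 (SE, adjusted p = 1.88e-07) in M2. M2 was below M0 in DMEM, at −0.36 ± 0.097 (SE, adjusted p = 0.00416) in WT and −0.43 ± 0.097 (SE, adjusted p = 0.00125) in KO. In MPNST-CM it was below, at −0.58 ± 0.10 (SE, adjusted p = 0.00021) in KO and overlapped in WT, at −0.067 (adjusted p = 0.682). The order began with KO and WT M0 DMEM, which overlapped, then KO and WT M2 DMEM, which overlapped, then WT M0, WT M2 and KO M0 in MPNST-CM, each overlapping the next. For Itga4 the batch 2 levels were 177 CPM in WT M0, 78.4 CPM in the library labelled M2_DMEM_KO_4 and 136 CPM in the library labelled M2_CM_KO_4. Only the Itga4 call for MPNST-CM in KO M0 held with all 27 libraries, and 10 were lost, at −0.68 (adjusted p = 0.0775) for MPNST-CM in WT M0, −0.35 (adjusted p = 0.44) for MPNST-CM in WT M2, −0.62 (adjusted p = 0.0819) for MPNST-CM in KO M2, −0.36 (adjusted p = 0.324) for KO against WT in exposed M0 and −0.44 (adjusted p = 0.225) for KO against WT in exposed M2. The others lost were −0.39 (adjusted p = 0.231) for M2 against M0 in WT DMEM, −0.57 (adjusted p = 0.0922) for M2 against M0 in KO DMEM, −0.14 (adjusted p = 0.817) for M2 against M0 in exposed KO, −0.36 (adjusted p = 0.617) for the M0 term and −0.27 (adjusted p = 0.774) for the M2 term.

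Itga5, for α5 of the fibronectin receptor, rested on few reads. It ran 4.56 to 7.97 CPM in WT M0 and 3.67 to 6.84 in KO M0 in DMEM, 5.30 to 7.53 in WT M0 and 3.69 to 4.87 in KO M0 in MPNST-CM. In M2 it ran 9.01 to 12.7 CPM in WT in DMEM, 5.09 to 7.20 in KO in DMEM, 4.91 to 5.85 in WT in MPNST-CM and 5.16 to 5.99 in KO in MPNST-CM. WT M2 in DMEM stood above every other group without overlap, KO M0 in MPNST-CM was lowest, and the 6 groups between overlapped their neighbours. Against WT M0 the difference of WT M2 in DMEM was 0.89 ± 0.23 (SE, adjusted p = 0.00243). MPNST-CM lowered Itga5 in WT M2, at −1.10 ± 0.23 (SE, adjusted p = 0.000626), and KO M2 lay below WT M2 in DMEM, at −0.84 ± 0.23 (SE, adjusted p = 0.0106). The last call was lost without KO M2 DMEM replicate 2 (−0.73, adjusted p = 0.0562). The genotype by medium term in M2 was 0.93 ± 0.33 (SE, adjusted p = 0.0485), which was lost without any 1 of 11 of the 12 libraries, and in M0 it was −0.48 (adjusted p = 0.381). The other 9 comparisons of Itga5 were not called and lay between −0.59 and 0.35. Its batch 2 levels were 6.01 CPM in WT M0, 7.37 CPM in the library labelled M2_DMEM_KO_4 and 6.54 CPM in the library labelled M2_CM_KO_4. Its M2 term was lost with all 27 libraries, at 0.89 (adjusted p = 0.163).

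Of 17 other integrin subunit genes, 5 passed the filter on low counts. Itgb1, the β1 chain itself, had group means of 378 to 558 CPM and moved little beside the α chains above. It was called in 3 of the 12 comparisons, as M2 against M0 in DMEM, 0.56 ± 0.073 (SE, adjusted p = 6.09e-07) in WT and 0.44 ± 0.073 (SE, adjusted p = 3.27e-05) in KO, and with MPNST-CM in KO M2, −0.24 ± 0.073 (SE, adjusted p = 0.00977). Itgb7, the other β partner of α4, stood at 72.5, 77.3 and 76.8 CPM in WT M0, 28.8, 33.1 and 36.03 in KO M0, 46.3, 50.6 and 45.8 in WT M2 and 26.3, 28.1 and 27.4 in KO M2 in DMEM. In MPNST-CM it stood at 100.5, 87.1 and 90.7 CPM in WT M0, 133, 151 and 138 in KO M0, 69.5, 83.7 and 74.2 in WT M2 and 165, 161 and 156 in KO M2. KO cells were below WT in DMEM and above WT in MPNST-CM, with no overlap, while Itga4 did not rise in any of these comparisons. The genotype by medium term of Itgb7 was 1.81 ± 0.13 (SE, adjusted p = 3.64e-11) in M0 and 1.88 ± 0.13 (SE, adjusted p = 3.53e-11) in M2. The library labelled M2_DMEM_KO_4 held 318 CPM of Itgb7 and the library labelled M2_CM_KO_4 34.9 CPM. Itga1, a collagen receptor chain, was higher with the medium in all 4 kinds of cell, with group means of 7.53 against 1.13 CPM in WT M0, 17.6 against 0.434 in KO M0, 31.4 against 8.52 in WT M2 and 31.7 against 2.87 in KO M2. Each was called by edgeR, but KO M0 in DMEM held 1, 9 and 0 counts, 2 of the 3 under the floor. Itga1 was at 20.1 CPM in the library labelled M2_DMEM_KO_4 and 3.94 CPM in the library labelled M2_CM_KO_4. Itga9, whose ligands include tenascin C, was called higher with the medium in WT M2 and KO M2, on 20, 28 and 17 counts against 1, 3 and 2 in WT and 20, 34 and 24 against 5, 3 and 7 in KO. Itga8, an RGD-binding chain, was called higher in KO M0, on 64, 56 and 66 counts against 10, 8 and 5. Itgad, the gene after Itgax, reached at most 0.261 CPM in any batch 1 library and was not tested.

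**Figure D4:**
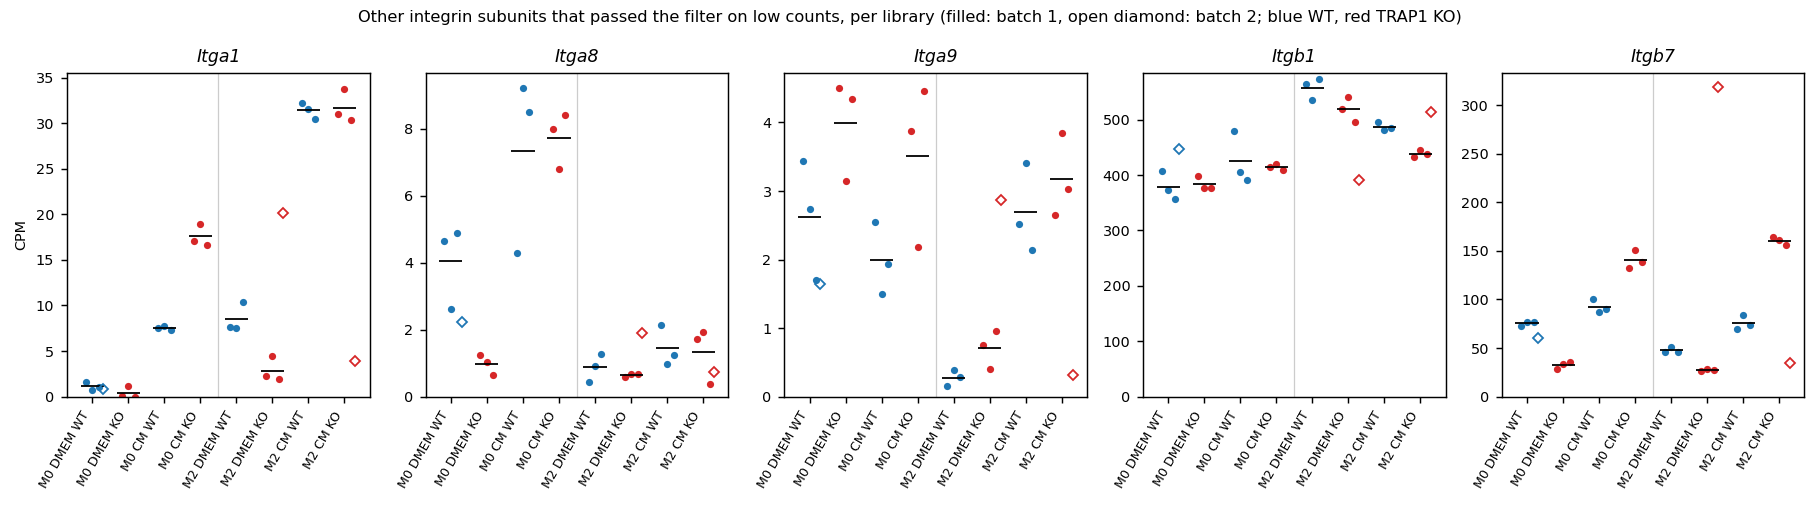
CPM of the 5 other integrin subunits that passed the filter, by library, in the 8 groups. Itgb1 group means stay between 378 and 558 CPM, and Itgb7 is highest in KO cells in MPNST-CM.

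Likeness of pattern was measured as the root mean square difference in centred mean log2 CPM over the 8 groups, among 9108 genes that reached 10 CPM in a group, with smaller values closer. For Itgax the nearest were Mmp12 (0.395), Lrrc32 (0.490) and Dcstamp (0.528), and for Itgb3 they were Il1rl2 (0.577), Bhlhe40 (0.653) and Igf2bp2 (0.666). Both have wide ranges and no close match, and with a prior count of 0.5 in place of 2 only 1 of the 3 genes was shared for each. Itgb2 was nearest to Tspan5 (0.158), Rnf128 (0.159) and H2-DMb1 (0.168). Itgam was nearest to Cd44 (0.112), Junb (0.164) and Pex26 (0.186). For Itgal the nearest, all distant, were 2900026A02Rik (0.546), Gpr183 (0.575) and Ccnd1 (0.620). Itgb5 lay closest to Gm9222 (0.113), Abcc5 (0.129) and Gm7785 (0.135). The nearest to Itga4 were Lpar5 (0.137), Anxa5 (0.147) and Mtmr14 (0.186). Itga5 had Ptges2 (0.138), Uqcrc1 (0.149) and Limk1 (0.159) as its nearest genes. Itga6 had Bmyc (0.269), Arap3 (0.283) and Abhd15 (0.290). No member was among the nearest 3 genes of another member.

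Ligands came next, from a list of 43 genes of which 21 were tested. Genes of this and the next lists are named for their largest changes. A change given in KO or in WT alone is not read as particular to that genotype. With MPNST-CM the list gave 3, 2, 5 and 4 of 21 higher and 4, 6, 7 and 10 lower in WT M0, WT M2, KO M0 and KO M2. The shares higher and lower among all genes there were 11.3% and 9.96%, 11.19% and 13.3%, 14.8% and 18.1% and then 16.7% and 20.2%, and the medians were −0.0047, 0.080, −0.51 and −0.63 for the list against −0.015, −0.029, −0.042 and −0.012 over all genes. Fn1, fibronectin, the ligand of α4 and α5, fell with MPNST-CM in KO M2, at 12.1 ± 0.989 against 404 ± 1.51 CPM (SD), a log2 fold change of −5.06 ± 0.22 (SE, adjusted p = 3.9e-14). IL-4 had raised it in KO in DMEM, at 404 ± 1.51 against 2.66 ± 0.381 CPM (SD), a log2 fold change of 7.23 ± 0.26 (SE, adjusted p = 2.76e-15). WT means of Fn1 moved the same way, from 4.07 CPM in M0 to 182 in M2 in DMEM and 20.1 in M2 in MPNST-CM. Thbs1, the αv and β3 ligand thrombospondin 1, moved the other way in KO M2, at 2520 ± 113 against 12.5 ± 1.04 CPM (SD), a log2 fold change of 7.66 ± 0.17 (SE, adjusted p = 1.24e-20). Its mean also rose with the medium in WT M2, from 12.6 to 386 CPM. In exposed M0 it was higher in KO than in WT, at 1878 ± 366 against 146 ± 19.4 CPM (SD), a log2 fold change of 3.68 ± 0.14 (SE, adjusted p = 2.35e-16). Edil3, a ligand of αv integrins, rose with the medium in KO M0, at 45.1 ± 0.896 against 3.10 ± 1.21 CPM (SD), a log2 fold change of 3.86 ± 0.18 (SE, adjusted p = 1.11e-15). Edil3 means were also higher with the medium in WT M0 (18.8 against 5.38 CPM), WT M2 (79.35 against 17.2) and KO M2 (100.7 against 11.3). Mfge8, the bridge from apoptotic cells to αv integrins, was higher with IL-4 in KO in DMEM, at 1596 ± 195 against 334 ± 28.4 CPM (SD), a log2 fold change of 2.26 ± 0.11 (SE, adjusted p = 4.7e-15). WT means of Mfge8 in DMEM were 1011 CPM in M2 and 358 in M0. C3, source of the iC3b bound by αM and αX, was higher in KO M0 in DMEM, at 179 ± 14.96 against 56.4 ± 5.74 CPM (SD), a log2 fold change of 1.66 ± 0.090 (SE, adjusted p = 4.61e-13). In the other 3 pairs C3 was lower in KO than in WT, at −1.09 (adjusted p = 1.05e-09) in M2 in DMEM, −0.49 (adjusted p = 0.000159) in exposed M0 and −0.92 (adjusted p = 1e-08) in exposed M2. F11r (JAM-A), which αL binds, was lower in KO M0 in DMEM, at 5.69 ± 0.825 against 14.3 ± 0.904 CPM (SD), a log2 fold change of −1.33 ± 0.19 (SE, adjusted p = 7.33e-06), and lower with IL-4 in WT, at 2.77 ± 0.909 against 14.3 ± 0.904 CPM (SD), a log2 fold change of −2.37 ± 0.21 (SE, adjusted p = 5.66e-10).

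Membrane partners of integrins made a list of 21 genes, 20 tested. With MPNST-CM it gave 4, 6, 8 and 7 of 20 higher and 4, 10, 4 and 11 lower in WT M0, WT M2, KO M0 and KO M2. The shares higher and lower among all genes there were 11.3% and 9.96%, 11.19% and 13.3%, 14.8% and 18.1% and then 16.7% and 20.2%, and the medians were 0.12, −0.25, 0.029 and −0.34 for the list against −0.015, −0.029, −0.042 and −0.012 over all genes. The tetraspanin Cd9 fell with the medium in KO M2, at 302 ± 36.1 against 1299 ± 94.0 CPM (SD), a log2 fold change of −2.10 ± 0.19 (SE, adjusted p = 3.32e-08), and was lower in KO than WT in exposed M2, at 302 ± 36.1 against 753 ± 91.7 CPM (SD), a log2 fold change of −1.32 ± 0.19 (SE, adjusted p = 1.86e-05). The WT M2 mean of Cd9 also fell with the medium, from 1604 to 753 CPM. Sdc1, a syndecan that works with αvβ3 and αvβ5, fell with the medium in KO M2, at 16.7 ± 1.15 against 110.0 ± 17.8 CPM (SD), a log2 fold change of −2.72 ± 0.11 (SE, adjusted p = 1.48e-16). WT M2 means of Sdc1 were 23.3 CPM with the medium and 46.4 in DMEM. Kdr, a VEGF receptor that associates with αvβ3, rose with the medium in KO M2, at 42.9 ± 1.05 against 4.33 ± 0.918 CPM (SD), a log2 fold change of 3.30 ± 0.16 (SE, adjusted p = 2.65e-15), and was lower with IL-4 in KO in DMEM, at 4.33 ± 0.918 against 29.6 ± 3.22 CPM (SD), a log2 fold change of −2.76 ± 0.16 (SE, adjusted p = 2.13e-13). WT means of Kdr moved the same way, at 18.5 CPM in M0 and 3.05 in M2 in DMEM and 23.9 in M2 in MPNST-CM. Plaur, the urokinase receptor and a partner of αM, was raised by IL-4 in WT, at 206 ± 31.01 against 22.1 ± 6.63 CPM (SD), a log2 fold change of 3.23 ± 0.28 (SE, adjusted p = 3.01e-08). Cd36, a thrombospondin receptor, was also raised, at 2900 ± 183 against 326 ± 42.1 CPM (SD), a log2 fold change of 3.15 ± 0.11 (SE, adjusted p = 7.75e-18). Cd14 was higher in KO than WT in exposed M2, at 1761 ± 17.7 against 541 ± 34.04 CPM (SD), a log2 fold change of 1.70 ± 0.16 (SE, adjusted p = 1.79e-08). Pecam1 was lower there, at 3.84 ± 0.739 against 10.3 ± 1.16 CPM (SD), a log2 fold change of −1.43 ± 0.29 (SE, adjusted p = 0.000414).

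Activators and adaptors, which act on the state and traffic of integrins, made a list of 23 genes, 17 tested. With MPNST-CM it gave 4, 4, 8 and 6 of 17 higher and 3, 1, 3 and 4 lower in WT M0, WT M2, KO M0 and KO M2. The shares higher and lower among all genes there were 11.3% and 9.96%, 11.19% and 13.3%, 14.8% and 18.1% and then 16.7% and 20.2%, and the medians were −0.021, 0.022, 0.33 and 0.12 for the list against −0.015, −0.029, −0.042 and −0.012 over all genes. Cytip, which holds back αLβ2 adhesion by binding cytohesin, rose in KO M0, at 131 ± 13.1 against 9.45 ± 1.83 CPM (SD), a log2 fold change of 3.79 ± 0.13 (SE, adjusted p = 3.33e-18). In exposed cells it was higher in KO than in WT, at 1.59 (adjusted p = 8.2e-12) in M0 and 0.41 (adjusted p = 0.00364) in M2. In DMEM it had been lower in KO M0 than in WT M0, at 9.45 ± 1.83 against 30.3 ± 1.60 CPM (SD), a log2 fold change of −1.68 ± 0.13 (SE, adjusted p = 4.19e-10), and higher with IL-4 in KO, at 30.5 ± 5.04 against 9.45 ± 1.83 CPM (SD), a log2 fold change of 1.69 ± 0.13 (SE, adjusted p = 8.29e-11). Cyth1, the cytohesin that binds the β2 tail, rose in KO M2, at 109 ± 3.497 against 19.7 ± 11.4 CPM (SD), a log2 fold change of 2.48 ± 0.36 (SE, adjusted p = 1.99e-05), and was higher in KO than WT in exposed M0, at 105 ± 14.6 against 25.4 ± 11.8 CPM (SD), a log2 fold change of 2.05 ± 0.34 (SE, adjusted p = 0.000117). It was higher in KO in exposed M2 as well, at 1.03 (adjusted p = 0.0206), and in M2 in DMEM all KO libraries lay below all WT libraries, a difference not called, at −0.87 (adjusted p = 0.115). Dab2, an endocytic adaptor of β tails, rose in KO M2, at 2219 ± 70.8 against 414 ± 16.3 CPM (SD), a log2 fold change of 2.42 ± 0.063 (SE, adjusted p = 1.24e-20), and was lower with IL-4 in WT, at 544 ± 9.62 against 1562 ± 33.8 CPM (SD), a log2 fold change of −1.52 ± 0.061 (SE, adjusted p = 6.56e-17). The WT M2 mean of Dab2 also rose with the medium, from 544 to 1620 CPM. Rasgrp3, an exchange factor for Ras and Rap, was lower in KO than WT in exposed M0, at 27.5 ± 4.87 against 54.6 ± 6.58 CPM (SD), a log2 fold change of −0.99 ± 0.12 (SE, adjusted p = 1.5e-07). It was also lower in exposed M2, at −0.68 (adjusted p = 6.96e-05), and higher in KO in DMEM, at 0.96 (adjusted p = 3.7e-07) in M0 and 0.56 (adjusted p = 0.001) in M2. Fyb, the adaptor ADAP, was lower with IL-4 in WT, at 386 ± 10.7 against 812 ± 35.9 CPM (SD), a log2 fold change of −1.07 ± 0.085 (SE, adjusted p = 7.14e-11).

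Focal adhesion and podosome genes made a list of 34, of which 31 were tested. With MPNST-CM the list gave 2, 3, 4 and 6 of 31 higher and 4, 10, 11 and 10 lower in WT M0, WT M2, KO M0 and KO M2. The shares higher and lower among all genes there were 11.3% and 9.96%, 11.19% and 13.3%, 14.8% and 18.1% and then 16.7% and 20.2%, and the medians were −0.067, −0.17, −0.17 and −0.10 for the list against −0.015, −0.029, −0.042 and −0.012 over all genes. Cttn, the podosome protein cortactin, was raised by IL-4 in WT, at 11.7 ± 0.670 against 0.834 ± 0.432 CPM (SD), a log2 fold change of 3.77 ± 0.36 (SE, adjusted p = 3.01e-09), and fell with the medium in WT M2, at 3.36 ± 0.978 against 11.7 ± 0.670 CPM (SD), a log2 fold change of −1.80 ± 0.30 (SE, adjusted p = 4.1e-05). Zyx, at focal adhesions, was raised by IL-4 in WT, at 202 ± 7.69 against 58.4 ± 3.54 CPM (SD), a log2 fold change of 1.79 ± 0.078 (SE, adjusted p = 4.13e-16), and Parvg, a parvin, was lowered, at 14.8 ± 1.59 against 47.9 ± 5.84 CPM (SD), a log2 fold change of −1.70 ± 0.12 (SE, adjusted p = 5.67e-12). The Src family kinase Fgr fell with the medium in WT M2, at 2.78 ± 0.423 against 12.5 ± 2.11 CPM (SD), a log2 fold change of −2.16 ± 0.26 (SE, adjusted p = 3.07e-07). Tns3, a tensin that binds β tails, fell in KO M2, at 56.2 ± 2.92 against 169 ± 8.91 CPM (SD), a log2 fold change of −1.59 ± 0.15 (SE, adjusted p = 2.92e-09), and was lower in KO than WT in exposed M2, at 56.2 ± 2.92 against 132 ± 8.19 CPM (SD), a log2 fold change of −1.23 ± 0.14 (SE, adjusted p = 3.09e-07). Tns1 was lower there too, at 44.3 ± 6.99 against 94.1 ± 6.59 CPM (SD), a log2 fold change of −1.09 ± 0.15 (SE, adjusted p = 5.23e-06). In M0 it was higher in KO in DMEM, at 0.77 (adjusted p = 0.000543), and lower in MPNST-CM, at −0.44 (adjusted p = 0.0255), and in M2 in DMEM it overlapped, at −0.0063 (adjusted p = 0.989). Nedd9, a Cas scaffold, was lower in KO M0 in DMEM, at 7.001 ± 0.722 against 15.1 ± 2.34 CPM (SD), a log2 fold change of −1.10 ± 0.15 (SE, adjusted p = 5.35e-06).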

How the data were processed

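Raw counts of reads per gene were deposited by the authors in a table of 32 sample columns and 50559 genes. The submitters' processing notes name Trimmomatic, FastQC, HISAT2, SAMtools, featureCounts and DESeq and build mm39, while the article's methods name mm10 and a mapping quality filter of 20. Versions are not given in the sources used here. The 27 columns that the labels map to samples were used, and 5 unmapped columns were not.

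The members and the gene lists were chosen with earlier results of these data known. Counts of the 24 batch 1 libraries were fitted in 1 model with a mean per group in edgeR 4.0.16 (limma 3.58.1, R 4.3.3), after filterByExpr and TMM, with quasi-likelihood tests and Benjamini-Hochberg adjustment over 13614 genes at 0.05. Fits with all 27 libraries tested 13723 genes. Log levels used a prior count of 2. Ratios and shares were compared by two-sided exact permutation tests over libraries in Python 3.11.15 (scipy 1.17.1, pandas 2.3.3), whose smallest p is 0.1, and figures were drawn with matplotlib 3.10.9. The floor for detection was 3 counts in a library and covers counting error only.

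Replicates of a group were checked for copies: over 24 pairs, chi-square per degree of freedom on genes with at least 20 counts was 2.11 to 37.4, with the pairs that hold replicate 1 highest in 5 of the 8 groups. All members, Trap1 and the tested other integrins were named, and from each other list up to 3 genes per kind of comparison with the largest absolute log2 fold change among those called that reached 10 CPM. Xist was named as a check. Neighbours in pattern were the 3 nearest genes, and marker lists were given as sums with the most abundant gene.

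The member calls, and the numbers of genes and members called, were recomputed under several alternatives. These were size factors by the median of ratios, DESeq2 1.42.0, no filter, the compared groups alone and a block for the replicate number. Further ones were all 27 libraries with or without a batch term, and leaving out each library in turn. Ratios and shares were recomputed on all 27 libraries and without each library in turn. A prior count of 2 was also used for the ratio, and of 0.5 for patterns. The other integrins and gene lists were not recomputed under these alternatives. A fit with 25 libraries was added after seeing the data. The fits were tested on simulated data. Tails of the proteins were not analysed here.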

Additional observations from a re-analysis of the deposited data

Results flagged for a closer look

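Libraries far from the others of their group were looked for in the 3 groups that have 4 libraries once batch 2 is added. For the 10 members this made 30 groups of 4 values, of which chance alone would mark about 1 in 20, or 1.5, and 11 were marked, each for its batch 2 library. The share of all genes marked by the same rule was not computed, and the 30 groups share the 3 batch 2 libraries. The KO libraries among these stood apart from their groups over all genes. The count is therefore not read as a result about the members.

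In KO M2 in DMEM the library labelled M2_DMEM_KO_4 had Itgb3 at 4.21 CPM, where the other 3 libraries ran 26.6 to 28.7. Its Itgax was at 20.4 CPM, where the other 3 libraries ran 738 to 799. Its Itgal was at 38.8 CPM, where the other 3 libraries ran 10.2 to 10.5. Its Itga4 was at 78.4 CPM, where the other 3 libraries ran 127 to 132. Its Itgb2 was at 508 CPM, where the other 3 libraries ran 2176 to 2324.

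The library labelled M2_CM_KO_4, grouped with exposed KO M2, had Itgav at 41.9 CPM, where the other 3 libraries ran 30.1 to 31.4. It had Itgax at 445 CPM, where the other 3 libraries ran 119.7 to 123. It had Itga4 at 136 CPM, where the other 3 libraries ran 53.7 to 56.3. It had Itga6 at 111 CPM, where the other 3 libraries ran 73.0 to 77.9. It had Itgb2 at 1593 CPM, where the other 3 libraries ran 882 to 990.5. In WT M0 in DMEM the batch 2 library had Itgal at 11.5 CPM, where the other 3 libraries ran 54.7 to 58.9.

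The response to MPNST-CM differed between KO and WT by edgeR's genotype by medium term for 6 members in M0. The term was −2.50 for Itgb3, 0.44 for Itgb5, 1.44 for Itgam, −0.71 for Itgax, 2.35 for Itgal and −0.40 for Itga4 on the log2 scale. In M2 it differed for 8 members, at −1.65 for Itgb3, −0.57 for Itgav, −0.44 for Itgb5, −0.67 for Itgax, 1.49 for Itgal, −0.85 for Itga4, 0.93 for Itga5 and −0.54 for Itga6.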

How the results depend on the processing

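Of the 94 calls among members, 93 held with median-of-ratios size factors, 93 with DESeq2, 92 with no filter, 90 with the compared groups alone, and all kept their direction there. The lost ones were Itga5 in the M2 term (0.91 in both of the first 2, 0.85 with no filter), Itga6 for MPNST-CM in WT M2 (−0.18 with no filter, −0.24 with groups alone), and with groups alone Itgb2 for MPNST-CM in WT M0 (−0.25), Itgb5 for M2 against M0 in WT MPNST-CM (0.35) and Itga4 in the M0 term (−0.38). With the compared groups alone, 1898 genes were called for MPNST-CM in WT M0 and 1941 for M2 against M0 in WT MPNST-CM, from 2889 and 3392. That fit has fewer samples. It called more genes for KO against WT in M2 DMEM, 2822 (was 2238), and M2 against M0 in WT DMEM, 5395 (was 5065). MPNST-CM in KO M2 also had more, 5132 (was 5016), and each other comparison had fewer.

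Adding all of batch 2 changed the calls most. Adding only its WT M0 library, in a fit chosen after seeing the data, kept 86 of the 94 calls. With all 27 libraries, 47 of the 94 calls held, 46 lost the threshold and 1 reversed, and with a batch term 49 held, 44 lost it and 1 reversed. The reversed one was Itgax in the M2 term, at 0.44 (adjusted p = 0.877) and 0.55 (adjusted p = 0.857), from −0.67. The 2 KO libraries of batch 2 lay closer to other groups than to the ones they were labelled with, and the part of this in the values with all 27 libraries was not tested. Genes called, without and with the batch term, were 958 and 1267 for MPNST-CM in WT M0 (was 2889), 1014 and 1210 for MPNST-CM in WT M2 (was 3330), 2647 and 2826 for MPNST-CM in KO M0 (was 4476), 826 and 988 for MPNST-CM in KO M2 (was 5016). They were 854 and 843 for KO against WT in M0 DMEM (was 2261), 3097 and 3297 for KO against WT in M0 MPNST-CM (was 5207), 1137 and 1146 for KO against WT in M2 DMEM (was 2238), 1681 and 1839 for KO against WT in M2 MPNST-CM (was 4627). Further counts were 2216 and 2045 for M2 against M0 in KO DMEM (was 3883), 1204 and 1376 for M2 against M0 in WT MPNST-CM (was 3392), 475 and 535 for M2 against M0 in KO MPNST-CM (was 1522), 653 and 777 for the M0 term (was 2683), 180 and 269 for the M2 term (was 2751). For M2 against M0 in WT DMEM they were 3692 and 3792 (was 5065). Members called were 1 and 1 for MPNST-CM in WT M0 (was 6), 3 and 3 for MPNST-CM in WT M2 (was 8), 2 and 3 for MPNST-CM in KO M2 (was 7), 3 and 3 for KO against WT in M2 DMEM (was 6), 2 and 2 for KO against WT in M2 MPNST-CM (was 7), 2 and 2 for the M0 term (was 6), 0 and 0 for the M2 term (was 8), and 3 without the batch term for KO against WT in M0 DMEM (was 6).

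With all 27 libraries the log2 ratio of Itgb3 to Itgb5 differed by 0.383 for MPNST-CM in KO M2, −1.66 for KO against WT in M2 DMEM and 0.284 for M2 against M0 in KO DMEM. The Itgam share then differed, in percentage points, by 6.97 for MPNST-CM in WT M0, 18.8 for MPNST-CM in KO M2, 3.43 for KO against WT in M0 DMEM, 18.4 for KO against WT in M2 DMEM, 5.60 for KO against WT in M2 MPNST-CM, −40.5 for M2 against M0 in WT DMEM, −25.4 for M2 against M0 in KO DMEM, −15.3 for M2 against M0 in KO MPNST-CM. The Itgax share differed by −17.0 for MPNST-CM in KO M2, −19.3 for KO against WT in M2 DMEM, −5.42 for KO against WT in M2 MPNST-CM, 25.3 for M2 against M0 in KO DMEM, 17.1 for M2 against M0 in KO MPNST-CM. The Itgal share differed by −1.99 for MPNST-CM in WT M0, −3.89 for KO against WT in M0 DMEM, −4.61 for M2 against M0 in WT DMEM, and it reversed to −1.81 for MPNST-CM in KO M2, 0.828 for KO against WT in M2 DMEM, 0.103 for M2 against M0 in KO DMEM. The cause was not tested.

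The fit with 25 libraries, batch 1 and the WT M0 library of batch 2, was chosen after seeing the data. It kept 86 of the 94 calls and the direction of all, and those no longer past the threshold were Itgal −0.65 for MPNST-CM in WT M0, Itgb2 −0.21 for MPNST-CM in WT M0, Itga6 −0.20 for MPNST-CM in WT M2, Itgal −0.78 for KO against WT in M2 MPNST-CM, Itgal −0.84 for M2 against M0 in WT MPNST-CM, Itgb5 0.35 for the M0 term, Itgal 1.45 for the M2 term, Itga5 0.89 for the M2 term.

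Each library was left out in turn from the groups compared, which kept 618 of 648 calls and every direction. Itgb2 for MPNST-CM in WT M0 was lost without M0 CM WT 1 (−0.17), M0 DMEM WT 2 (−0.23), M0 DMEM WT 3 (−0.23). Itga6 for MPNST-CM in WT M2 was lost without M2 DMEM WT 2 (−0.21), M2 CM WT 2 (−0.19), M2 DMEM WT 3 (−0.18), M2 CM WT 3 (−0.20), M2 DMEM WT 4 (−0.22). In KO against WT in M2 DMEM, Itgb5 was lost without M2 DMEM KO 2 (0.28), Itga5 without M2 DMEM KO 2 (−0.73) and Itgb2 without M2 DMEM WT 4 (−0.31). Itga4 in the M0 term was lost without M0 DMEM KO 1 (−0.32), M0 CM WT 1 (−0.41), M0 DMEM WT 2 (−0.35), M0 CM WT 2 (−0.42), M0 CM KO 2 (−0.36), M0 DMEM WT 3 (−0.40), M0 CM WT 3 (−0.39), M0 CM KO 3 (−0.39). Itga5 in the M2 term was lost without M2 CM WT 1 (0.85), M2 CM KO 1 (0.98), M2 DMEM KO 1 (0.99), M2 CM WT 2 (1.00), M2 CM KO 2 (0.88), M2 DMEM KO 2 (0.76), M2 DMEM WT 3 (0.80), M2 CM WT 3 (0.88), M2 CM KO 3 (0.92), M2 DMEM KO 3 (0.94), M2 DMEM WT 4 (0.83). Brackets hold the log2 fold change without that library, and the adjusted p ran 0.0515 to 0.18 over these 30 fits. Genes called with a library left out ran 2199 to 2497, 2592 to 2921, 3800 to 4223 and 4321 to 4611 for MPNST-CM in WT M0, WT M2, KO M0 and KO M2.

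Whether the replicate numbers mark a shared batch is not in the labels. Replicate 1 stood apart in 5 groups, and same-numbered libraries of different groups correlated at a mean of 0.107 over 77 pairs (−0.214 to 0.521) against −0.0451 over 175 others. For 11 of 24 libraries the mean correlation with libraries of other groups was highest for their own number. With the number as a block, 93 of 94 calls held, Itga5 in the M2 term being at 0.90 (adjusted p = 0.0552). Genes called were then fewer for M2 against M0 in WT DMEM, 4717 (was 5065), MPNST-CM in WT M2, 3164 (was 3330), KO against WT in M2 DMEM, 1989 (was 2238), and the M2 term, 2711 (was 2751), and more in each other comparison, up to 5693 (was 5207) for KO against WT in M0 MPNST-CM.

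With 3 libraries per group, tests cannot give an exact p under 0.1, and Itgb3 in exposed KO M0, Itga5 and Itga9 throughout, Itga8 in M2 and Itga1 in M0 in DMEM rest on few counts. With a prior count of 0.5, the 3 genes nearest to Itgb3 and to Itgax shared 1 gene with those reported.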
